A study of Homo sapiens with 12 samples.

Results

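The 8 genes described here are 6 transcription factors that drive the epithelial-mesenchymal transition (EMT), SNAI1, SNAI2, ZEB1, ZEB2, TWIST1 and TWIST2, and 2 proteins that mark mesenchymal cells, VIM and CDH2. They were taken by exact gene symbol from the 27788 symbols with read counts, and all 8 were also among the 24552 symbols with FPKM values (fragment counts scaled by transcript length and sequencing depth). Polyadenylated RNA was sequenced in 12 libraries, 3 in each of 4 groups: GSTO1 KO U-87 MG, WT U-87 MG, GSTO1 KO HCT116 and WT HCT116. U-87 MG is a human glioblastoma line and HCT116 a human colorectal carcinoma line. GSTO1 encodes an omega-class glutathione transferase, an enzyme that reduces mixed disulfides between glutathione and other molecules.

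Per the labels' protocols, both lines carried Cas9 delivered by a lentivirus and were selected with blasticidin. They then received tracrRNA together with a crRNA to exon 2 of GSTO1 or a crRNA without a target. Individual colonies were then isolated, and those lacking GSTO1 were checked by Sanger sequencing. The sources used here do not give whether WT cells carried Cas9 and the control crRNA, or how many colonies stand behind each group, so a difference between colonies and an effect of the knockout cannot be told apart. Nothing in the labels shows that a group's 3 libraries are separate cultures, so the p-values rest on library-to-library spread that may be purely technical. U-87 MG libraries were read from both fragment ends and HCT116 libraries from 1 end, so cell line and read layout cannot be told apart in any comparison of levels between the lines.

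The transition turns cells joined in an epithelial sheet into separate, motile cells. SNAIL, ZEB and TWIST factors bind E-box motifs in DNA. SNAIL and ZEB factors repress genes of cell junctions, of which CDH1 (E-cadherin) is the best known, while vimentin (VIM) and N-cadherin (CDH2) are gained. ZEB1 and ZEB2 and the microRNAs of the miR-200 family repress each other. Glioblastoma cells are not epithelial, and in them the same factors have been studied in invasion and in the mesenchymal subtype. In bulk RNA, fewer cells of a type and less RNA per cell cannot be told apart.

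Libraries held 17814142 to 28097179 counts, so 3 counts corresponded to 0.107 to 0.168 CPM (counts scaled to library size). GSTO1 was at 25.02, 23.8 and 25.2 CPM in U-87 MG KO libraries, against 143, 142 and 117 CPM in U-87 MG WT libraries. It was at 17.1, 14.6 and 15.7 CPM in HCT116 KO libraries, against 63.9, 64.7 and 61.4 CPM in HCT116 WT libraries. GSTO1 transcript was therefore lower in every KO library than in every WT library of its line, though not at 0. WT replicate 3 of U-87 MG stood farthest from the other libraries of its group, and results that turn on it are given with and without it. Of 12 glial markers, only SLC1A3 and NES were above 1 CPM in U-87 MG, and OLIG1, SOX10, AQP4 and ALDH1L1 were at 0 in KO and WT alike. SLC1A3 and NES were also above 1 CPM in HCT116 KO and WT libraries, and ALDH1L1 in HCT116 KO libraries. Of 9 fibroblast markers, 7 were above 1 CPM in U-87 MG KO and 6 in U-87 MG WT libraries. Of 13 colorectal epithelial markers, 7 were above 1 CPM in HCT116 KO and WT alike.

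VIM, which encodes the intermediate filament protein of mesenchymal cells, was by far the most abundant member in U-87 MG, ranking number 4 of 24552 symbols by mean FPKM in KO and number 5 in WT libraries. It took 0.704% to 0.707% of all counts in U-87 MG KO libraries and 0.835% to 0.978% in U-87 MG WT libraries. In HCT116 it averaged 1.54 ± 0.350 FPKM in KO and 2.16 ± 0.368 FPKM in WT libraries (SD, n = 3 each), at rank 11060 in KO and 10336 in WT libraries.

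The order of levels differed between the lines. On the FPKM scale, which corrects for gene length, the order in U-87 MG KO libraries ran VIM, CDH2, SNAI2, ZEB1, TWIST1, ZEB2, TWIST2 and SNAI1. TWIST1 and ZEB2 were the only neighbours in that order whose libraries overlapped. In U-87 MG WT libraries SNAI2 stood above CDH2, and ZEB1 and TWIST1 were the only overlapping neighbours. In HCT116 KO and WT libraries alike, SNAI1 led at 8.52 ± 0.677 FPKM in KO and 9.70 ± 1.02 FPKM in WT libraries, followed by VIM, ZEB1 and TWIST1. VIM overlapped ZEB1 in both HCT116 groups, and ZEB1 overlapped TWIST1 in KO only. SNAI2 stayed below 1 FPKM in HCT116, and ZEB2, TWIST2 and CDH2 were at or next to 0.

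**Figure D1:**
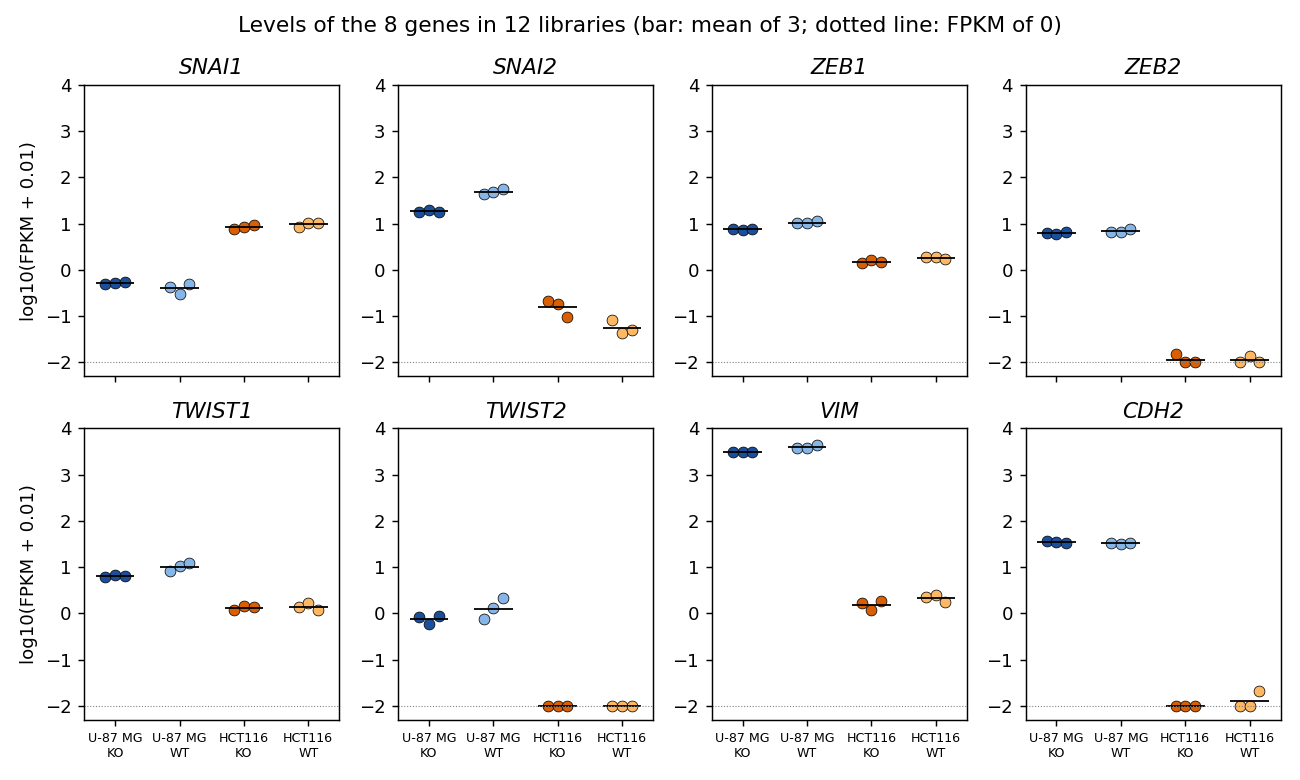
Level of each gene in each library, as log10(FPKM + 0.01), for U-87 MG KO, U-87 MG WT, HCT116 KO and HCT116 WT; points are the 3 libraries of a group, bars their mean, and the dotted line is an FPKM of 0. SNAI1 is the only gene higher in HCT116, and ZEB2, TWIST2 and CDH2 sit at or next to the dotted line there.

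A gene was called where its adjusted p was under 0.05, its fold above 1.5 and its mean FPKM above 0.5. Between the WT lines, the 4 members that passed the filter on low counts in each line were all called, 3 higher and 1 lower in U-87 MG. The other 4 entered that fit only through U-87 MG, where they are high. Of 15613 genes tested in that comparison, 55.2% were called, 28.3% higher and 26.9% lower. That set also holds genes under the filter in either line. SNAI1, the factor named for the fly gene Snail, was lower in WT U-87 MG than in WT HCT116, with a log2 fold change of -4.52 ± 0.16 (SE, edgeR adjusted p = 1.85e-22). ZEB1 was higher by a log2 fold change of 2.66 ± 0.07 (edgeR adjusted p = 5.77e-26), and TWIST1 by 2.98 ± 0.13 (edgeR adjusted p = 5.59e-20). VIM was higher by 10.87 ± 0.10 on the log2 scale (edgeR adjusted p = 1.05e-21).

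The remaining members had too few HCT116 counts for a fitted fold change to be read, so pooled counts are given with counting intervals, which cover counting error only. CDH2 had 10542 counts in WT U-87 MG and 1 in WT HCT116, and its level was at least 3223-fold higher in KO U-87 MG than in KO HCT116, where no read was counted. ZEB2 had 4997 counts in WT U-87 MG and 1 in WT HCT116. SNAI2 had 7919 counts in WT U-87 MG and 8 in WT HCT116, a ratio of depth-scaled counts of 981 (95% interval 498 to 2273). TWIST2 was not counted in any of the 6 HCT116 libraries, and was at least 41.3-fold higher in WT U-87 MG than in WT HCT116, taking 3 counts over the HCT116 group as the floor. CDH1 showed the opposite pattern, with 6 counts in WT U-87 MG and 3601 in WT HCT116, and with 0 counts in KO U-87 MG and 5564 in KO HCT116.

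The more abundant SNAIL factor was SNAI2 in U-87 MG and SNAI1 in HCT116. SNAI2 exceeded SNAI1 by a ratio of 36.5 ± 3.52 in U-87 MG KO and 129 ± 33.0 in U-87 MG WT libraries, in FPKM (SD, n = 3 each). In HCT116 the ratio of SNAI1 to SNAI2 was 37.9, 49.6 and 105 in KO and 121, 317 and 252 in WT libraries, on 5 to 9 SNAI2 counts per KO library and 2 to 4 per WT library. The ratio of ZEB2 to ZEB1 was 0.851 ± 0.0342 in U-87 MG KO and 0.664 ± 0.00742 in U-87 MG WT libraries (SD, n = 3 each), and the libraries of the 2 groups did not overlap.

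Markers of other cell types and an RNA measure are given by the range over the libraries of each group. In U-87 MG the summed level of 8 leukocyte markers, of which CD68 alone was above 1 CPM, was 589 to 607.9 CPM in KO and 347 to 428 CPM in WT libraries, with CD3E and MS4A1 among those at 0 in both. The 9 fibroblast markers summed to 5563 to 5632 CPM in KO and 5886 to 6562 CPM in WT libraries, the 12 glial markers to 169.7 to 178 CPM in KO and 150.2 to 155 CPM in WT libraries, and the 6 endothelial markers to 4.63 to 7.30 CPM in KO and 11.9 to 15.2 CPM in WT libraries. The 13 colorectal epithelial markers summed to 11.9 to 12.9 CPM in U-87 MG KO and 20.03 to 21.1 CPM in U-87 MG WT libraries, and KRT8 among them was called lower, at a log2 fold change of -1.12. In HCT116 the glial markers summed to 42.7 to 45.8 CPM in KO and 82.1 to 85.9 CPM in WT libraries, the fibroblast markers to 24.98 to 30.6 CPM in KO and 20.9 to 24.1 CPM in WT libraries, the leukocyte markers to 10.9 to 11.9 CPM in KO and 12.1 to 14.4 CPM in WT libraries, and the endothelial markers to 1.80 to 2.28 CPM in KO and 0.982 to 1.31 CPM in WT libraries. None of these sums overlapped between KO and WT libraries. Among single genes tested, 64% in U-87 MG and 61.6% in HCT116 did not overlap either. The colorectal epithelial sums of HCT116 did overlap, at 3263 to 3546 CPM in KO and 3447 to 3667 CPM in WT libraries. RNR2, the large mitochondrial ribosomal RNA, took 0.419% to 0.435% of counts in U-87 MG KO and 0.254% to 0.323% in U-87 MG WT libraries, and 1.36% to 1.54% in HCT116 KO and 0.981% to 1.06% in HCT116 WT libraries. Their part in the results was not tested.

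The promoter sequences below are shown for the factor ZEB1, which both lines transcribed, and for the 2 markers VIM and CDH2. Each is the 250 bases before an annotated start, from RefSeq on GRCh38.p14, where 5 of the 8 members matched an entry. ZEB1 has 7 windows there, CDH2 has 2 and VIM has 1, and the first listed is shown. Capitals mark the E-box CAGGTG in ZEB1 and each CG in VIM and CDH2.
ZEB1 at chr10:31318167-31318416, plus strand: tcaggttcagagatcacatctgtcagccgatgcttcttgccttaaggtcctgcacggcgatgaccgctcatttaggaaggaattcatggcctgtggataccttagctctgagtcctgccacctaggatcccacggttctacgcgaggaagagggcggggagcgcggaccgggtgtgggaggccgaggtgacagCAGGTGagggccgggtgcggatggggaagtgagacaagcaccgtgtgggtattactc
VIM at chr10:17227991-17228240, plus strand: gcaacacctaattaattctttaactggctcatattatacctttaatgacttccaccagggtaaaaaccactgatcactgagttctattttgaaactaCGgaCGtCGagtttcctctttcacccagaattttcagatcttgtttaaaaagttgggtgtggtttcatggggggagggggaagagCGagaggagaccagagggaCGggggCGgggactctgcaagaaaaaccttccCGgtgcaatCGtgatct
CDH2 at chr18:28177131-28177380, minus strand: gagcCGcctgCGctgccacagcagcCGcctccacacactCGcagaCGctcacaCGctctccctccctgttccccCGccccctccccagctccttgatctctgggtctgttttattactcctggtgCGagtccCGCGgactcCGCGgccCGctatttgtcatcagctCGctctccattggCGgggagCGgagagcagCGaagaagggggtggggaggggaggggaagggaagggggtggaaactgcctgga
The E-box, searched as CAGGTG and its reverse complement CACCTG, was present in 17.5% of 35116 promoter windows of this length. It stood once in this ZEB1 window, 57 bases before the start, and these letters were not in 5 of the 7 ZEB1 windows, in the VIM window or in either CDH2 window. VIM had 8 CG in its window, at percentile 45.9 of all windows. CDH2 had 17 in the window shown, at percentile 63.2, and 4 in its other window, at percentile 34.3. The median window had 11. These are descriptions of letters and say nothing of binding or methylation.

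In U-87 MG, the KO libraries had lower levels of 5 of the 6 factors, led by SNAI2. Of the 8 members, 3 were called lower and 0 higher, where 8.15% of 13741 genes tested were called lower, 8.06% higher and 16.2% in either direction. SNAI2, TWIST1 and TWIST2 fell by that call, while ZEB1, ZEB2 and VIM passed the adjusted p but changed by less than 1.5-fold. On adjusted p alone, 6 of 8 members were lower, where 30.2% of genes tested were. SNAI1 and CDH2 did not pass. The KO and WT libraries of 5 members did not overlap, with KO lower, and the same was true of 32.2% of genes tested.

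SNAI2, a repressor of CDH1 also called Slug (on the minus strand at chr8:48917598-48921740 with 3 exons), was at 39.2, 43.8 and 40.5 CPM in U-87 MG KO libraries, against 101, 109 and 125 CPM in U-87 MG WT libraries. All 3 KO libraries lay far below all 3 WT libraries. Gene positions here and below are from GENCODE 44 on GRCh38, and at most 0.314% of the 50-base words of any member are shared with another gene. KO over WT, the log2 fold change was -1.44 ± 0.07 (SE), a 2.71-fold lower level (edgeR adjusted p = 7.28e-11), and -1.35 without WT replicate 3.

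TWIST1, a basic helix-loop-helix factor of mesoderm and neural crest (on the minus strand at chr7:19020991-19117636 with 2 exons), was at 11.4, 12.0 and 11.3 CPM in U-87 MG KO libraries, against 15.7, 19.1 and 21.8 CPM in U-87 MG WT libraries. The groups did not overlap, and the WT libraries spread more widely than the KO libraries. Its log2 fold change was -0.70 ± 0.10 (SE, edgeR adjusted p = 6e-06), and -0.60 without WT replicate 3.

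TWIST2, its close relative (on the plus strand at chr2:238848032-238910534 with 2 exons), was at 1.05, 0.769 and 0.954 CPM in U-87 MG KO libraries, against 0.925, 1.78 and 2.60 CPM in U-87 MG WT libraries. The groups overlapped, since WT replicate 1 lay within the KO range, on 16 to 29 counts per KO library and 21 to 55 per WT library. Its log2 fold change was -0.91 ± 0.32 (SE, edgeR adjusted p = 0.0208). The call was lost without WT replicate 3, at -0.56 (edgeR adjusted p = 0.132), without KO replicate 2, at -0.80 (edgeR adjusted p = 0.0794), without KO replicate 3, at -0.93 (edgeR adjusted p = 0.0556), in limma on log2(FPKM + 1), at -0.40 (adjusted p = 0.112), and in limma on log2(FPKM + 0.1), at -0.68 (adjusted p = 0.112).

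**Figure D2:**
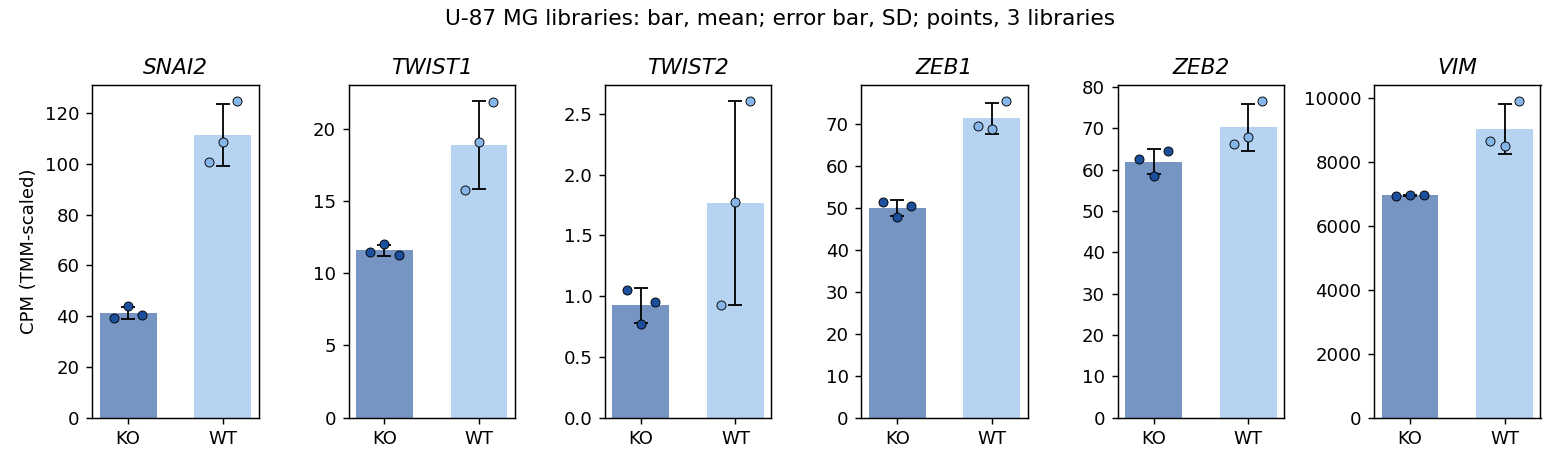
Level in CPM of 6 members in the U-87 MG libraries, KO left of WT, each panel on its own axis from 0; bars are means of 3 libraries, error bars the SD, points the libraries. Every KO library of SNAI2, TWIST1, ZEB1, ZEB2 and VIM lies below every WT library, and those of TWIST2 overlap.

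ZEB1, a zinc-finger repressor of epithelial genes (on the plus strand at chr10:31318495-31529814 with 9 exons), was at 51.5, 47.9 and 50.4 CPM in U-87 MG KO libraries, against 69.6, 68.8 and 75.5 CPM in U-87 MG WT libraries. The groups did not overlap. edgeR gave a log2 fold change of -0.51 ± 0.06 (SE, edgeR adjusted p = 5.35e-08), a 1.43-fold lower level that missed the fold threshold. Its antisense neighbour ZEB1-AS1, which covers 4.58% of ZEB1 exon bases, averaged 4.31 ± 0.636 CPM in U-87 MG KO and 3.74 ± 0.506 CPM in U-87 MG WT libraries (SD, n = 3 each) and was not called.

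ZEB2, its paralogue (on the minus strand at chr2:144364364-144521057 with 10 exons), was at 62.6, 58.6 and 64.6 CPM in U-87 MG KO libraries, against 66.2, 67.9 and 76.7 CPM in U-87 MG WT libraries. The groups did not overlap, though by little. edgeR gave a log2 fold change of -0.18 ± 0.06 (SE, edgeR adjusted p = 0.0129), and limma on log2(FPKM + 1) gave -0.12 (adjusted p = 0.143). ZEB2-AS1 had 10 counts in KO and 6 in WT libraries, and LINC01412 had 2 in KO and 0 in WT libraries.

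VIM (on the plus strand at chr10:17228241-17237593 with 10 exons) was at 6925, 6966 and 6959 CPM in U-87 MG KO libraries, against 8660, 8504 and 9909 CPM in U-87 MG WT libraries. The KO libraries lay close together and below all WT libraries. The log2 fold change was -0.38 ± 0.05 (SE, edgeR adjusted p = 3.26e-05), a 1.30-fold lower level that was not called. VIM-AS1 averaged 9.61 ± 0.689 CPM in U-87 MG KO and 9.20 ± 0.894 CPM in U-87 MG WT libraries (SD, n = 3 each).

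CDH2, which encodes N-cadherin (on the minus strand at chr18:27932879-28177946 with 16 exons), was at 164, 158 and 149.5 CPM in U-87 MG KO libraries, against 153, 142 and 150.0 CPM in U-87 MG WT libraries. The groups overlapped. edgeR gave a log2 fold change of 0.09 ± 0.05 (SE, edgeR adjusted p = 0.114).

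SNAI1, the least abundant member in U-87 MG (on the plus strand at chr20:49982980-49988886 with 3 exons), was at 0.830, 0.865 and 0.954 CPM in KO libraries, against 0.749, 0.508 and 0.852 CPM in WT libraries. The groups overlapped, and the mean FPKM of the line was under 0.5. The log2 fold change was 0.35 ± 0.33 (SE, edgeR adjusted p = 0.377).

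The summed level of the 6 factors was 38.9, 40.8 and 40.1 FPKM in U-87 MG KO libraries, against 71.4, 76.5 and 89.2 FPKM in U-87 MG WT libraries. SNAI2 was the largest part of both sums, at 18.4 ± 1.24 FPKM in KO and 49.4 ± 5.64 FPKM in WT libraries (SD, n = 3 each).

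In HCT116, 4 members had enough counts to be tested, and 0 were called by edgeR, where 11.9% of 14068 genes tested were called, 7.82% higher and 4.07% lower. Of the 4, 2 had an unadjusted p under 0.05, and DESeq2 and limma also called 0. All 4 fold changes were below 0. On adjusted p alone, ZEB1 and VIM were lower, where 28.1% of genes tested were. The libraries of ZEB1 did not overlap, with KO lower, and the same held for 30.4% of genes tested.

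SNAI1 was at 15.2, 16.7 and 17.6 CPM in HCT116 KO libraries, against 15.9, 19.3 and 18.7 CPM in HCT116 WT libraries. The groups overlapped. Its log2 fold change was -0.12 ± 0.09 (SE, edgeR adjusted p = 0.269).

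ZEB1 was at 9.93, 11.6 and 10.4 CPM in HCT116 KO libraries, against 13.0, 13.3 and 11.8 CPM in HCT116 WT libraries. The groups did not overlap, though the highest KO and the lowest WT library were close. The log2 fold change was -0.25 ± 0.10 (SE, edgeR adjusted p = 0.0289), with adjusted p between 0.0122 and 0.117 over the alternatives tried.

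TWIST1 was at 2.23, 2.79 and 2.72 CPM in HCT116 KO libraries, against 2.51, 3.16 and 2.36 CPM in HCT116 WT libraries. The groups overlapped. Its log2 fold change was -0.05 ± 0.18 (SE, edgeR adjusted p = 0.818), and its sign turned when single libraries were left out.

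VIM was at 4.24, 3.32 and 4.60 CPM in HCT116 KO libraries, against 5.60, 6.32 and 4.20 CPM in HCT116 WT libraries. The groups overlapped. The log2 fold change was -0.41 ± 0.16 (SE, edgeR adjusted p = 0.0386), with adjusted p between 0.00494 and 0.213 over the alternatives. VIM-AS1 had 37 counts in KO and 41 in WT libraries. The antisense gene VIM-AS1 covers 12.7% of VIM exon bases in GENCODE 44, and the sources used here do not give the strand setting of the counting.

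SNAI2 was under the filter on low counts in HCT116, with 9, 8 and 5 counts in KO libraries, against 4, 2 and 2 counts in WT libraries. Every KO library held more than every WT library, and KO was higher without overlap for 31.2% of the genes tested in HCT116. The pooled ratio was 3.27 (95% interval 1.40 to 8.49, counting error only), and without the filter edgeR gave an adjusted p of 0.0436 at a level far under 0.5 FPKM. ZEB2 had 1 count in HCT116 KO and 1 in HCT116 WT libraries in all, CDH2 had 0 in KO and 1 in WT libraries, and TWIST2 had 0 in KO and 0 in WT libraries.

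**Figure D3:**
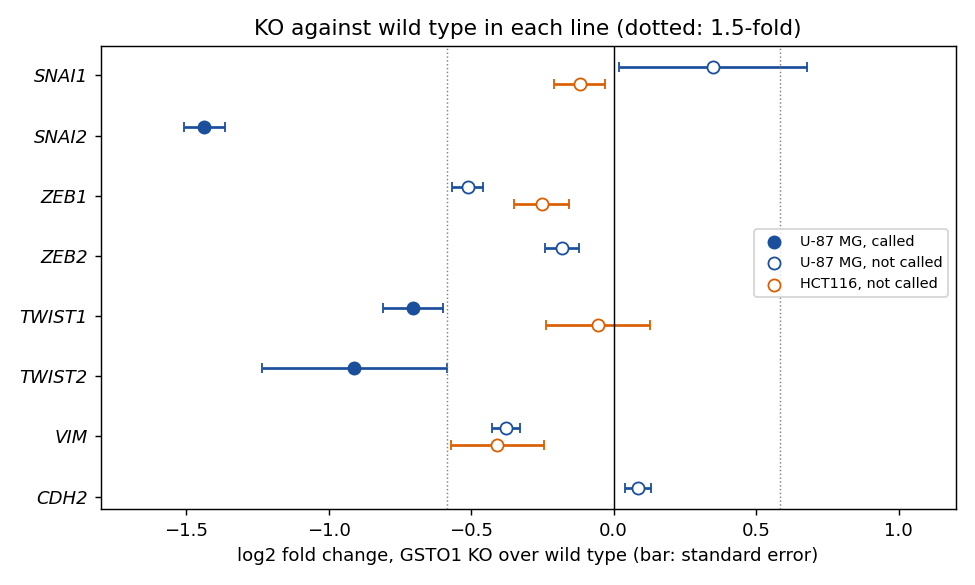
Log2 fold change of KO over WT for each member, U-87 MG above HCT116, with SE bars; filled points were called, and the 4 genes without an HCT116 point were under its filter. The largest change is that of SNAI2 in U-87 MG, at -1.44, and no HCT116 point passes the dotted 1.5-fold lines.

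The response to the knockout was compared between the lines as the U-87 MG minus HCT116 difference of the 2 log2 fold changes. All libraries were in 1 fit. Of the 4 members that passed the filter in both lines, 1 was called lower, TWIST1, and 0 higher. Of 12239 such genes, 11.3% were called lower, 8.28% higher and 19.6% in either direction. The difference was -0.66 ± 0.21 for TWIST1 (SE, edgeR adjusted p = 0.0129), and missed the fold threshold without U-87 MG WT replicate 3, at -0.53, without HCT116 WT replicate 3, at -0.58, and with limma on log2(FPKM + 1), at -0.56. For ZEB1 it was -0.27 ± 0.11 (SE, edgeR adjusted p = 0.0423), which was not called, and 41.9% of all genes passed on adjusted p alone. For SNAI1 it was 0.46 ± 0.30 (SE, edgeR adjusted p = 0.228), and for VIM 0.02 ± 0.17 (SE, edgeR adjusted p = 0.981). SNAI2 entered the joint fit only through U-87 MG, where it is high, so its fitted difference of -3.09 ± 0.58 (SE, edgeR adjusted p = 4.96e-05) is given as a value and not read as a test. With it, 2 members passed the call, where 9.66% of all 15613 genes in that fit were called lower, 7.24% higher and 16.9% in either direction. The difference for ZEB2, TWIST2 and CDH2 was not read, since HCT116 held at most 1 count in any library.

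The miR-200 family is shown because it is the best known partner of ZEB1 and ZEB2, and because MIR200CHG, the host gene of miR-200c and miR-141, was called in HCT116. The mature sequences are from RefSeq on GRCh38.p14, with the seed (bases 2 to 8) in capitals, and fall into 2 groups by seed.
hsa-miR-200a-3p: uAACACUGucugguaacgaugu
hsa-miR-141-3p: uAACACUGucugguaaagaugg
hsa-miR-200b-3p: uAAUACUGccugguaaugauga
hsa-miR-200c-3p: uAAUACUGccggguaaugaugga
hsa-miR-429: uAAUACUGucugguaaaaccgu
Sites for these seeds, CAGTGTT and CAGTATT in DNA letters, were counted in the sense strand of the 3′ untranslated region of the canonical transcript of each gene, in GENCODE 44 on GRCh38. ZEB1 held 9 and ZEB2 held 9, and 8 of 19539 regions held at least as many (0.0409%). SNAI2 held 1, and the other members held 0. A site of CAGTGTT was present in 18.2% of regions and one of CAGTATT in 16.1%. Examples follow, written 5′ to 3′ on the transcript strand with the match in capitals.
ZEB1 site at chr10:31527618-31527639: attgttttatcttatCAGTATT
ZEB1 site at chr10:31528031-31528052: caaaatcatcagaatCAGTGTT
ZEB2 site at chr2:144389053-144389074: cgcactaccatacatCAGTATT
ZEB2 site at chr2:144389237-144389258: tgcaaaaattttgtaCAGTGTT
MIR200CHG was at 2.51, 2.69 and 3.22 CPM in HCT116 KO libraries, against 1.44, 2.00 and 2.17 CPM in HCT116 WT libraries. The groups did not overlap. It was called higher, at a log2 fold change of 0.60 ± 0.20 (SE, edgeR adjusted p = 0.0153), just past the fold threshold. The call was lost without KO replicate 3, at 0.47 (edgeR adjusted p = 0.0819) and without WT replicate 1, at 0.44 (edgeR adjusted p = 0.0981). MIR200CHG had 0 counts in U-87 MG KO and 1 count in U-87 MG WT libraries. The mature microRNAs were not measured.

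A list of 24 holds epithelial genes, among them genes known to be repressed by the SNAIL, ZEB and TWIST factors. In HCT116, 6 of 23 tested were called higher and 0 lower, where 7.82% of all genes tested were called higher and 4.07% lower. The median log2 fold change was 0.32, against 0.01 over all genes tested. CDH1 was at 88.8, 93.4 and 91.9 CPM in HCT116 KO libraries, against 48.0, 52.4 and 50.8 CPM in HCT116 WT libraries. The groups were far apart, with a log2 fold change of 0.86 ± 0.05 (SE, edgeR adjusted p = 5.31e-11). CDH3, which encodes P-cadherin, averaged 253 ± 8.01 CPM in KO and 156 ± 3.25 CPM in WT libraries (SD, n = 3 each). CLDN4, a tight-junction claudin, averaged 97.1 ± 10.3 CPM in KO and 50.5 ± 4.84 CPM in WT libraries.

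In U-87 MG, 3 of 13 genes of that list were called higher and 0 lower, where 8.06% of all genes were called higher and 8.15% lower, at a median of 0.09 against 0.01 over all genes. F11R, a junctional adhesion molecule, averaged 68.3 ± 0.880 CPM in KO and 11.8 ± 0.709 CPM in WT libraries (SD, n = 3 each), a log2 fold change of 2.53 ± 0.07 (SE, edgeR adjusted p = 3.19e-18). MUC1, a membrane mucin, averaged 10.6 ± 0.709 CPM in KO and 2.83 ± 0.204 CPM in WT libraries. CLDN4 averaged 1.65 ± 0.461 CPM in KO and 0.774 ± 0.208 CPM in WT libraries, and limma on log2(FPKM + 1) gave 0.39, under the fold threshold.

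Regulators that keep cells epithelial were mostly under the filter in U-87 MG, where 2 of 12 could be tested. Of these, 0 were called by edgeR, DESeq2 or limma. Both had an edgeR adjusted p under 0.05, as did 59.3% of genes tested there. Over the alternatives, at most 1 was called higher and at most 1 lower. In HCT116, 3 of 11 were called higher and 1 lower, where 7.82% of all genes were called higher and 4.07% lower. ELF3, whose exon bases are 9.24% covered by the antisense gene ELF3-AS1, averaged 88.3 ± 1.31 CPM in HCT116 KO and 42.8 ± 1.93 CPM in WT libraries (SD, n = 3 each), and its relative EHF went the other way, at 52.0 ± 3.10 CPM in KO and 123 ± 6.49 CPM in WT libraries. ESRP1, a splicing regulator of epithelial isoforms, averaged 213 ± 4.98 CPM in KO and 140.0 ± 2.54 CPM in WT libraries, with a log2 fold change of 0.60. It lay below the fold threshold in limma on log2(FPKM + 1), at 0.53, and on log2(FPKM + 0.1), at 0.54.

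Calls among mesenchymal genes other than the 2 markers ran mostly lower in U-87 MG and higher in HCT116. In U-87 MG, 14 of 35 tested were called lower and 3 higher, where 8.15% of all genes were called lower and 8.06% higher, with a median log2 fold change of -0.37. COL1A1, a fibrillar collagen chain, averaged 1831 ± 30.0 CPM in KO and 3268 ± 97.5 CPM in WT libraries (SD, n = 3 each), and TNC (tenascin C) 1437 ± 6.48 CPM in KO and 2467 ± 40.7 CPM in WT libraries. LUM (lumican) rose, at 54.2 ± 3.25 CPM in KO and 8.59 ± 0.796 CPM in WT libraries, and so did COL3A1, at 10.9 ± 0.164 CPM in KO and 1.10 ± 0.176 CPM in WT libraries. In HCT116, 5 of 23 were called higher and 0 lower, where 7.82% of all genes were called higher and 4.07% lower, with a median of 0.38. CD44, a hyaluronan receptor, averaged 1217 ± 38.5 CPM in KO and 653 ± 13.4 CPM in WT libraries, and S100A4 63.9 ± 3.73 CPM in KO and 36.4 ± 0.111 CPM in WT libraries. In the test of the difference between the lines, 14 of the 23 genes that passed the filter in both lines were called lower in U-87 MG relative to HCT116 and 0 higher, where 11.3% of such genes were called lower and 8.28% higher.

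Of other transcription factors linked to the transition, 6 of 15 were called higher and 0 lower in HCT116, where 7.82% of all genes were called higher, at a median of 0.40. SOX4 averaged 289.5 ± 7.62 CPM in HCT116 KO and 109 ± 0.574 CPM in HCT116 WT libraries (SD, n = 3 each), a log2 fold change of 1.41 ± 0.04 (SE, edgeR adjusted p = 6.82e-16). SOX9 and HMGA2 were also called higher, at 0.99 and 0.67 on the log2 scale. In U-87 MG, 1 of 16 was called higher and 2 lower, near the 8.06% and 8.15% of all genes, at a median of -0.05. TCF12, a helix-loop-helix partner that pairs with TWIST1, averaged 187 ± 5.98 CPM in U-87 MG KO and 308 ± 11.7 CPM in U-87 MG WT libraries. ETS1 was lower, at a log2 fold change of -0.85, and SOX9 higher, at 0.68. ID4, an inhibitor of helix-loop-helix factors, was at 2.03 ± 0.430 CPM in U-87 MG KO and 5.50 ± 0.705 CPM in U-87 MG WT libraries. In U-87 MG, 2 of 7 helix-loop-helix partners were called lower, ID4 and TCF12, and TCF12 was also counted among the transcription factors. Of the 5 partners tested in HCT116, 0 were called by edgeR, while DESeq2 and both limma fits called 1 lower. In edgeR 3 of them had an adjusted p under 0.05, as did 57.3% of genes tested there. ID2, another such inhibitor, was at a log2 fold change of -0.58 (edgeR adjusted p = 2.29e-08), just under the fold threshold.

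**Figure D4:**
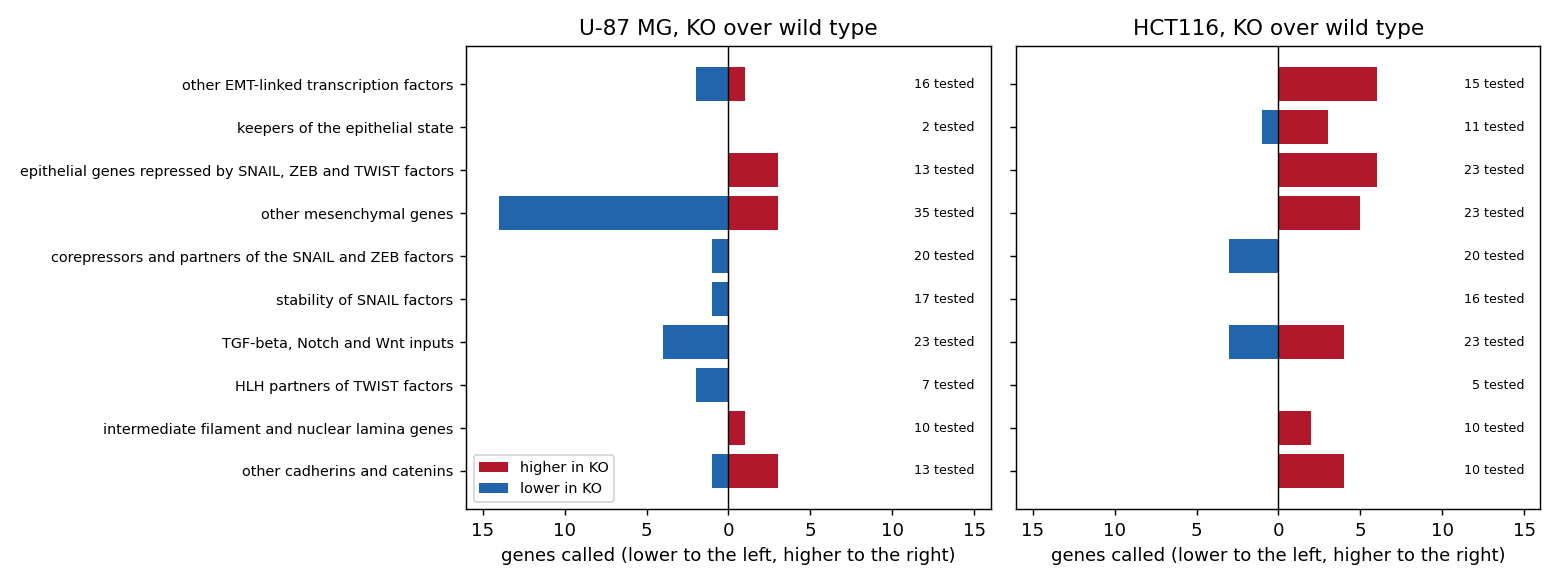
Number of genes of each list called higher (right) or lower (left) in KO, U-87 MG left and HCT116 right, with the number tested beside each bar. Of the other mesenchymal genes, 14 of 35 are called lower and 3 higher in U-87 MG, and 0 lower and 5 of 23 higher in HCT116.

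Cofactors of the factors gave few calls in U-87 MG, where 8.15% of all genes were called lower. In HCT116, the share of corepressors called lower was above the 4.07% of all genes. Of the corepressors, 1 of 20 was called lower in U-87 MG, EZH2 (the methyltransferase of Polycomb), at 58.1 ± 1.202 CPM in KO and 91.0 ± 2.16 CPM in WT libraries (SD, n = 3 each), and 3 of 20 were called lower in HCT116, led by DNMT1 (the maintenance DNA methyltransferase) at 238 ± 8.53 CPM in KO and 447 ± 3.63 CPM in WT libraries. PRMT5, at a log2 fold change of -0.59, lay at the fold threshold and lost its call without KO replicate 3, at -0.57, without WT replicate 1, at -0.58, without WT replicate 2, at -0.58, and with upper-quartile factors, at -0.58; the antisense gene PRMT5-AS1 covers 28.2% of its exon bases. WTIP was lower at -1.10. Of the genes that set the stability of SNAIL proteins, 1 of 17 was called in U-87 MG, the kinase gene PRKD1 at -0.90. In HCT116, 0 of 16 were called by edgeR, DESeq2 or limma. There 11 had an unadjusted and 9 an adjusted p under 0.05 in edgeR, where 57.3% of genes tested passed on adjusted p.

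Among TGF-beta, Notch and Wnt genes, 4 of 23 were called lower and 0 higher in U-87 MG, and 4 of 23 higher and 3 lower in HCT116. Of all genes, 8.15% were called lower in U-87 MG, and 7.82% higher and 4.07% lower in HCT116. NOTCH3, a Notch receptor, moved in opposite directions, at 15.5 ± 0.896 CPM in U-87 MG KO and 29.0 ± 0.263 CPM in U-87 MG WT libraries, and at 72.6 ± 6.85 CPM in HCT116 KO and 35.8 ± 0.980 CPM in HCT116 WT libraries (SD, n = 3 each). TGFB3, a TGF-beta ligand, was lower in U-87 MG at a log2 fold change of -0.96, and HES1, a Notch target, at -3.39. JAG1, a Notch ligand, was higher in HCT116 at 1.45, and AXIN2, a Wnt target, lower at -1.21.

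Of other cadherins and catenins, relatives of CDH2 and their partners, 3 of 13 were called higher and 1 lower in U-87 MG, where 8.06% of all genes were called higher and 8.15% lower. CDH13, a truncated cadherin held by a lipid anchor, averaged 69.4 ± 1.84 CPM in U-87 MG KO and 169.7 ± 5.00 CPM in U-87 MG WT libraries, while CDH18 and CDH7 were higher at log2 fold changes of 0.82 and 0.68. CDH7 lay under the fold threshold in limma on log2(FPKM + 1), at 0.41. In HCT116, 4 of 10 were called higher and 0 lower, where 7.82% of all genes were called higher, led by JUP (plakoglobin) at 489.6 ± 25.9 CPM in KO and 280.2 ± 11.01 CPM in WT libraries. CDH1 and CDH3 are among these 4 and were also counted in the list of epithelial genes. Of intermediate filament and lamina genes, 1 of 10 was called higher in U-87 MG, VMAC at 1.19, a share near that of all genes. In HCT116 2 of 10 were called higher, BFSP1 at 0.93 and VMAC at 1.16, of which VMAC lost its call in limma on log2(FPKM + 1), at 0.40.

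Across the 12 libraries, each member's nearest gene was sought by the root-mean-square distance of log2(FPKM + 1), centred on each gene's mean. The distances, over 12 libraries, describe likeness only, of change across libraries and not of level. ARV1, nearest to ZEB2, averaged 2.49 FPKM in WT HCT116 libraries, where ZEB2 averaged 0.00116 FPKM. Cell line and read layout cannot be told apart in these distances. The nearest genes were NCEH1 (0.068), STK17A (0.090) and AFF3 (0.092) for ZEB1, and ARV1 (0.082), RIN2 (0.083) and PRICKLE2 (0.088) for ZEB2. They were DOC2B (0.079), PAK6 (0.085) and VWA1 (0.089) for SNAI1, and SPOCD1 (0.130), BDKRB1 (0.238) and LINC01116 (0.261) for SNAI2. For TWIST1 they were HAGLR (0.106), AFF3 (0.119) and LINC01117 (0.121), and for TWIST2 TMCC1-AS1 (0.148), ARHGEF28 (0.170) and UACA (0.171). VEGFC (0.083), STAC (0.088) and CREB3L1 (0.112) were nearest to CDH2, and MMP2 (0.331), TGFBI (0.389) and FN1 (0.515) to VIM.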

How the data were processed

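RNA was sequenced from stranded poly(A) libraries in single reads (HCT116) or read pairs (U-87 MG), per the labels' protocols. STAR 2.5.2, featureCounts 1.6.1 and Cufflinks 2.2.1, with build GRCh38, are named in the submitters' processing notes. The authors deposited raw counts for each gene symbol from featureCounts, and FPKM for each symbol from Cufflinks, per the series' design text. The sources used here do not give the strand setting, the handling of multi-mapping reads or the counting of pairs.

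Counts were tested with edgeR 4.0.16 (TMM factors, its filter on low counts, robust quasi-likelihood F-test, Benjamini-Hochberg over all genes tested) in R 4.3.3. HCT116 and U-87 MG were fitted apart for KO against WT, and together for the difference of responses and for the WT lines. CPM uses TMM-scaled library sizes within a line, and SE is the log2 fold change over the square root of F. A call needed adjusted p under 0.05, fold above 1.5 and mean FPKM above 0.5. Alternatives were DESeq2 1.42.0, limma 3.58.1 on log2(FPKM + 1) and log2(FPKM + 0.1), RLE and upper-quartile factors, no filter on low counts, no FPKM threshold, a replicate block and each library left out. The procedure was tested on simulated counts.

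Members and gene lists were chosen with earlier results of these data known. Named genes were all members, GSTO1, CDH1, MIR200CHG, from each list up to 3 called genes per line, taken by adjusted p, and the 3 nearest genes of each member among 12268 expressed genes. COL3A1 was named through the fibroblast list. Not every gene this rule names is reported here. Sequences came from RefSeq and GENCODE 44.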

Additional observations from a re-analysis of the deposited data

Results flagged for a closer look

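Of the 4 members that passed the filter in both lines, 2 had a difference in log2 fold change on adjusted p alone. The difference is U-87 MG minus HCT116 (edgeR, all 12 libraries). Of all 15613 genes in that fit, 41.9% passed, a set that also holds genes under the filter in either line. The difference was -0.66 for TWIST1 (edgeR adjusted p = 0.0129), which was also past the 1.5-fold threshold, and -0.27 for ZEB1 (edgeR adjusted p = 0.0423), which was not. The fitted value of -3.09 for SNAI2 (edgeR adjusted p = 4.96e-05) is not read as a test, since SNAI2 was under the low-count filter in HCT116 and entered the fit through U-87 MG. SNAI2 was lower in every U-87 MG KO library than in every U-87 MG WT library, as were 32.2% of genes tested there. It was higher in every HCT116 KO library than in every HCT116 WT library, on 22 counts in KO and 8 counts in WT libraries in all. The same pattern held for 31.2% of the genes tested in HCT116.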

How the results depend on the processing

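Under every alternative tried, SNAI2 and TWIST1 kept their calls in U-87 MG and no member was called in HCT116. The number of genes called in HCT116 was 1672 (1100 higher, 572 lower), and 1047 with limma on log2(FPKM + 1) (555 higher, 492 lower); leaving out 1 library each gave 1660 to 1742 there and 2212 to 2274 in U-87 MG, with 0 members called in HCT116, 2 to 3 in U-87 MG and 1 to 2, SNAI2 among them, in the difference between the lines. The count for the difference between the lines was 1 with limma on log2(FPKM + 1). Signs turned for TWIST1 in HCT116, which ranged from -0.1351 to 0.0857 with 1 library left out (0.0284 without KO replicate 1), and in the difference between the lines for VIM, from -0.12 to 0.16 and -0.0309 with limma on log2(FPKM + 1), and for ZEB2, from -2.11 to 1.598; the cause was not tested. Over the alternatives, calls higher in HCT116 ran from 3 to 7 for the other transcription factors of the transition. For the keepers of the epithelial state they ran from 1 to 3 in HCT116. In U-87 MG, calls higher ran from 2 to 3 for the list of epithelial genes (6 with no FPKM threshold). Calls lower in U-87 MG ran from 13 to 15 for the mesenchymal genes. With upper-quartile factors the median of all genes in the WT lines moved by -0.13.

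Same-numbered KO and WT deviations correlated at 0.071, 0.056 and 0.226 in HCT116 and at 0.03, 0.004 and -0.008 in U-87 MG. Those with different numbers correlated at -0.148 to 0.101 in HCT116 and at -0.027 to 0.022 in U-87 MG. Replicate numbers thus did not pair the libraries in U-87 MG, while replicate 3 of KO and WT shared some deviation in HCT116. On adjusted p alone, 9183 genes passed in HCT116 with a replicate block and 8059 without it. With the replicate block, 1680 genes were called in HCT116 and 2221 in U-87 MG, and no member's call changed. The call of MIR200CHG in HCT116 was lost with the block, at 0.58.

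Depth limits the precision for members with few counts (SNAI2, ZEB2, TWIST2 and CDH2 in HCT116, SNAI1 and TWIST2 in U-87 MG). Each comparison rests on 3 libraries a group.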

Other observations

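The gene lists also separated the WT lines. Of the 23 mesenchymal genes that passed the filter on low counts in both lines, 22 were called higher and 1 lower in WT U-87 MG than in WT HCT116. Of the 13 genes of the epithelial list that passed in both lines, 1 was called higher and 11 lower. Of all genes tested, 28.3% were called higher and 26.9% lower, a set that also holds genes under the filter in either line.

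Single genes outside the naming rule for U-87 MG, chosen after their values were seen, also differed between KO and WT. S100A4, a calcium-binding protein of motile cells, averaged 5.00 ± 0.539 CPM in U-87 MG KO and 20.2 ± 2.92 CPM in U-87 MG WT libraries (SD, n = 3 each), the opposite direction to HCT116, and the U-87 MG minus HCT116 difference was -2.85 ± 0.13 on the log2 scale (SE, edgeR adjusted p = 7.38e-18). JUP, the junction protein plakoglobin, averaged 20.5 ± 2.01 CPM in U-87 MG KO and 0.614 ± 0.630 CPM in U-87 MG WT libraries, on 1435 counts in KO and 48 in WT libraries, with a log2 fold change of 4.93 ± 0.38 (SE, edgeR adjusted p = 4.99e-05). WT replicate 2 held 37 of those 48 counts.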
